A study of Mus musculus with 12 samples.

Results

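The messenger RNAs listed for colonies grown with TGFβ for 2 days were taken as every row of the authors' deposited day 2 table, 998 genes of the 2091 that the tables of days 2, 4 and 8 hold between them. AKR-2B cells, a mouse fibroblast line, had been plated in soft agar, a gel that tests for growth without attachment, with 25 ng/mL TGFβ or with vehicle alone. Colonies were freed from the agar after 2 days and 1 mRNA library was made per condition, so nothing here is replicated and p-values are left out. Everything rests on 1 cell line and 1 pair of libraries, and a TGFβ and a vehicle miRNA library of the same day, also 1 each, served as a second readout.

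TGFβ is a secreted cytokine that binds a pair of serine/threonine kinase receptors, which phosphorylate SMAD transcription factors. In fibroblasts it is known for raising matrix genes, smooth muscle actin and its own feedback genes, and for letting some fibroblast lines, AKR-2B among them, form colonies in soft agar. BMPs, its relatives, signal through another set of SMADs to the ID genes.

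The table gives 1 ratio per gene and its header names no direction. Here TGFβ is put on top of the ratio and vehicle below it, since all 6 listed direct targets of TGFβ then lie above 1. The side of those targets is therefore fixed by the reading and is no result, and the opposite reading would invert every direction below. The list of targets was chosen with earlier results of these data known. Acta2, smooth muscle actin, which TGFβ is also known to raise in fibroblasts, is on another list. On this reading it lies below 1, with 89 reads in TGFβ and 1597 in vehicle. The table lists 499 genes above 1 (50%) and 499 below 1, and it ends at a ratio of 3 above and at 7-fold below. The tables of days 4 and 8 also list 499 on each side, so the equal split is the length of the list and no result. A gene outside it is not shown to be unchanged. How many mRNA reads each library held in all is not known here. Unequal depth of the 2 libraries and a true difference in how far the genes of each side lie from 1 cannot be told apart.

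The reads behind a ratio can be bounded from its form. For 997 of the 998 genes (99.9%), reducing the printed value to its simplest fraction left an odd number above and below the line. A read count plus 0.5 in each library, with no scaling for depth, has this form. The exception was Col6a1, whose simplest fraction was not odd on both sides, and its smallest odd pair was used. The smallest odd pair therefore gives the fewest reads each library can have held, called smallest reads below. Every odd multiple of a pair gives the same ratio, so a library given 0 smallest reads may have held some. All mRNA read numbers below, 0 included, are such lower bounds. For Sap30l, Mgp, Col6a2 and Col6a1 the printed digits leave more than 0.05 chance pairs expected, so their smallest reads are the least certain. The 95% intervals given are exact conditional binomial intervals of the smallest reads and cover counting error only. PCR copies of 1 molecule can be counted more than once, which they leave out. Where a library had 0 reads, the deposited ratio depends on the added 0.5, and the fold given here is a bound with that 0 set to 3 reads. That bound is a convention and not a 95% limit, which lies nearer to 1. For 27 reads against 0 the 95% limit is 6.83-fold in place of 9-fold.

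By smallest reads, most of the list rested on very few, and more so above 1 than below. Above 1, 382 genes (76.6%) had 0 smallest reads in vehicle. At exactly 3 in the authors' deposited table stood 186 genes, at the fewest 1 read in TGFβ against 0 in vehicle. Below 1, 285 genes (57.1%) had 0 smallest reads in TGFβ. At least 20 smallest reads in 1 library, a larger whole number of at least 41, were behind 89 genes above 1 (8.92% of the 998) and 207 genes below 1 (20.7%). Of those 296 genes, 30.1% were thus above 1, and their median log2 ratio was -3.13. The table reaches nearer to 1 above than below: at 7-fold or more, the 296 genes split into 35 above and 207 below. The counting interval excluded a 2-fold difference for 91 genes above 1 and 248 below.

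**Figure D1:**
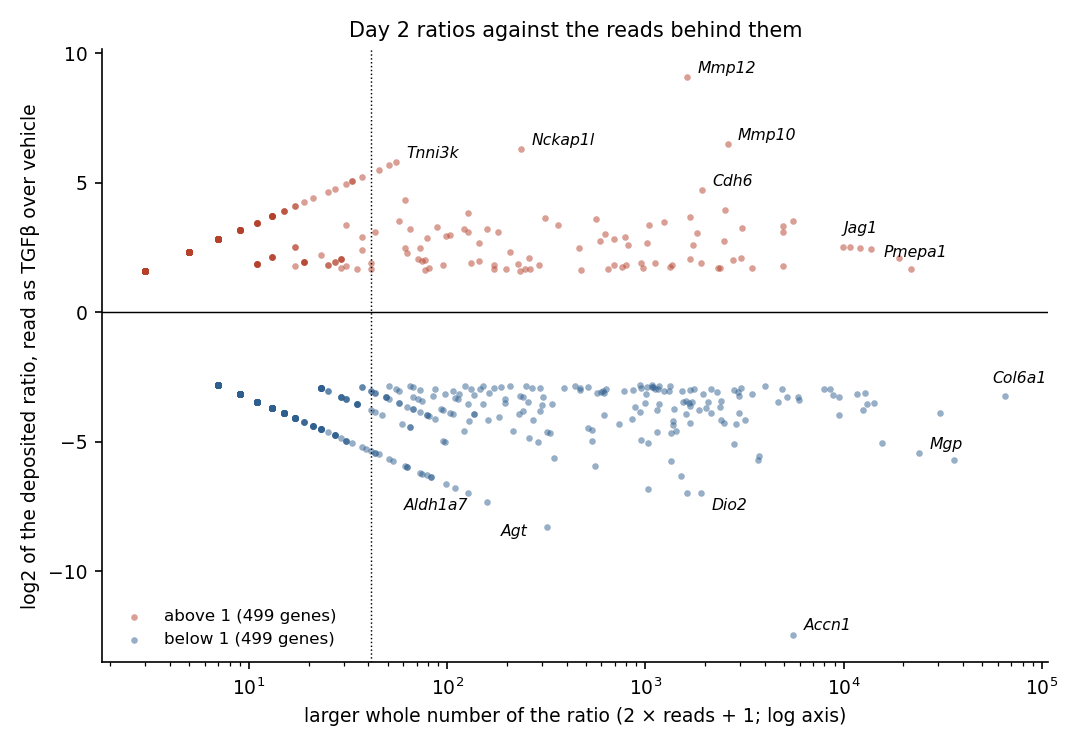
Each point is 1 of the 998 genes, with the larger whole number of its ratio (2 × reads + 1, log axis) across and the log2 of the deposited ratio up; the dotted line marks 41. The outermost slanted row on each side holds the genes with 0 smallest reads in 1 library, 382 above 1 and 285 below 1.

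The ends of the list stop partway through a tie. The 186 genes tied at 3 ran in chromosome order, and all 184 that could be placed lay on chromosomes 1 to 7. The 58 genes tied at 7-fold below 1 did the same, all 58 on chromosomes 1 to 7. Those chromosomes hold 43.7% of the genes placed in RefSeq. The next ties inward, 120 genes at 5 and 74 genes at 9-fold below, covered 20 and 18 chromosomes. Among the tied genes, a gene on another chromosome with the same 1 or 3 reads is not listed, so its absence says nothing about it. The last names above 1, Trim30b, Usp17l5, Vmn1r55, Vmn2r-ps54 and Vmn2r78, each stood at 1 read against 0. The last names below 1, Zfp467, Cxcl17, Hpn, Il21r and Mir1839, each stood at 0 reads in TGFβ against 3 in vehicle.

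Ranking by the ratio and ranking by the bound of the counting interval nearest 1 gave different leading genes. Above 1, 11 of the 20 largest ratios had under 20 smallest reads, and 7 of the 20 were also among the 20 with the highest interval bound. Tas2r119, a bitter taste receptor gene (18 reads in TGFβ, 0 in vehicle), and Naa11, an acetyltransferase gene (16 and 0), are of the first kind. Below 1 none of the 20 had so few reads, and 9 were shared.

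Proteases of the matrix led the list above 1. Mmp12, macrophage elastase, had 807 reads in the TGFβ library and 1 in the vehicle library, a ratio of 538 in the authors' deposited table (95% interval 144 to 31914). Mmp10, stromelysin-2, had 1297 reads in TGFβ and 14 in vehicle, a ratio of 89.5 there (55.0 to 170). The collagenase gene Mmp13 had 282 reads in TGFβ and 23 in vehicle, and its paralog Mmp1b had 79 and 8. These 4 genes lie together on chromosome 9 between positions 7272514 and 7510242 (GRCm38). Mmp12 and Mmp1b overlap in the GENCODE annotation, and the library kit named in the labels does not mark strand, so reads in the overlap cannot be told apart.

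The sheddase genes Adam12 (5398 reads in TGFβ, 941 in vehicle) and Adam19 (72 and 11) were also above 1, as was Plau, the urokinase gene (953 and 252). Adam12 is also on the list of direct TGFβ targets, so its side was set by the reading and is no result. Of 26 listed genes of the protease and inhibitor list, 18 were above 1 and 8 below. With at least 20 reads the count was 9 above and 6 below, 60.0% above against 30.1% over all 296. Members named one by one, without those matched by a symbol pattern, were 1 above and 3 below, so the direction rests on the pattern. The 6 below included the inhibitors Slpi, the secretory leukocyte protease inhibitor (23 reads in TGFβ, 572 in vehicle), and Serping1, the C1 inhibitor (78 and 1013). Pappa2, an IGF-binding-protein protease, had 0 reads in TGFβ and 21 in vehicle, at least 7-fold lower.

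The 4 matrix metalloprotease promoters are shown because each holds an AP-1 element, TGANTCA, in capitals, within 250 bases before a RefSeq start (GRCm38.p6).
Mmp10 (chr9:7502259-7502305, + strand): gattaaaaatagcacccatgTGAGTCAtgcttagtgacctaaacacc
Mmp13 (chr9:7272459-7272505, + strand): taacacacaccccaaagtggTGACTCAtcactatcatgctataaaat
Mmp12, the second of its 2 starts (chr9:7347310-7347356, + strand): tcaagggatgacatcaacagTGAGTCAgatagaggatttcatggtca
Mmp1b (chr9:7388093-7388139, - strand): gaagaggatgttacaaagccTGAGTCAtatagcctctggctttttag
The other Mmp12 window held no such element.

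RefSeq windows spanned 300 bases (250 before a start and 50 after it). AP-1 on either strand was in 5 of the 13 windows matched for the protease list and in 7.81% of all 32851 windows. Those 13 windows come from 10 of the 15 list genes with at least 20 reads. The 15 were 9 above 1 and 6 below. The 5 include the metalloprotease windows printed above, which were shown because they hold the element, so this share is no separate result. Over all listed genes AP-1 was in 34 of 411 windows (8.27%) above 1 and 31 of 441 (7.03%) below, near the share of all windows. With at least 20 reads it was in 12 of 89 windows (13.5%) above 1 and in 15 of 199 (7.54%) below. The windows of genes with at least 20 reads come from 64 of the 89 genes above and 156 of the 207 below, and several windows of 1 gene share bases. The shares of the other motifs that follow are also of genes with at least 20 reads. The SMAD-associated CAGACA, on either strand, was in 29.2% of windows above and 20.1% below, against 6913 of all 32851 windows. TATAAA on the coding strand was in 14.6% above and 9.05% below, against 8.32% of all. The interferon element core GAAANNGAA was in 13.5% above and 11.6% below, against 8.56% of all. TNGCGTG, the xenobiotic element, was in 5.62% above and 3.52% below, against 5.07% of all. The CArG box was in 0 of the windows above and 1.51% below, against 1.63% of all. A match is a run of letters and not a bound site.

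**Figure D2:**
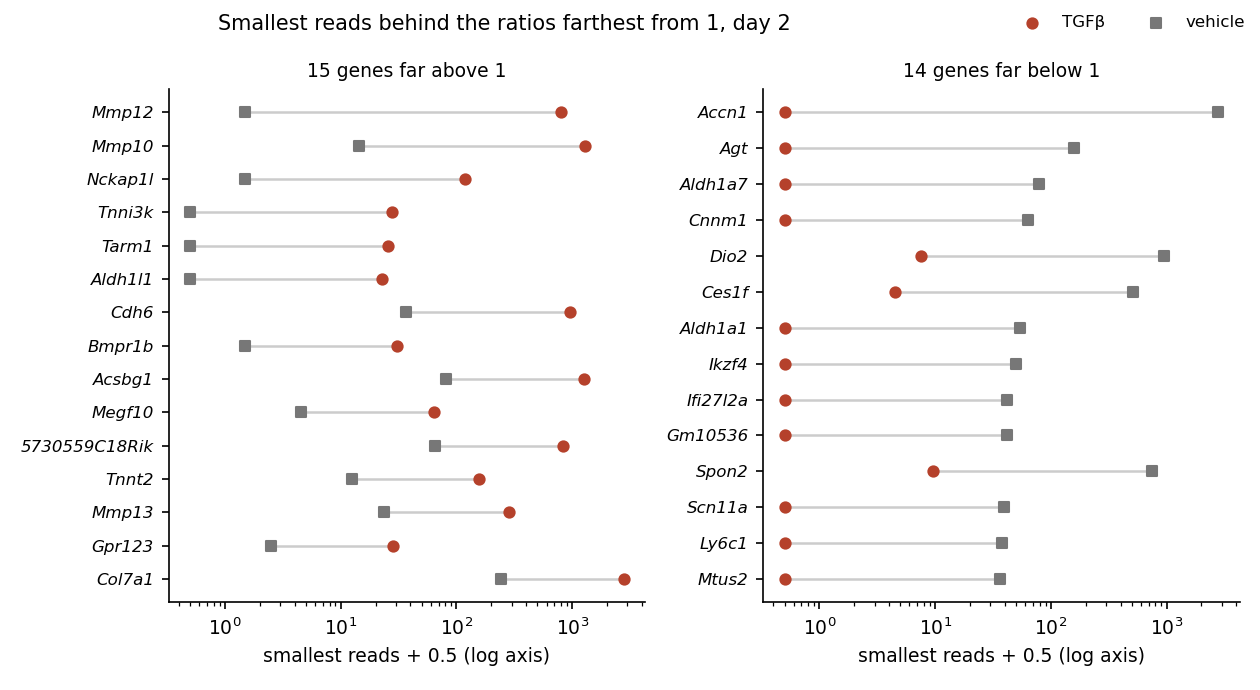
Smallest reads plus 0.5 (log axis) in the TGFβ library (red circles) and the vehicle library (grey squares) for the 15 genes farthest above 1 and 14 of the 15 farthest below 1, among those with at least 20 reads. On the left Mmp12 pairs 807 reads with 1, and on the right Accn1 pairs 0 reads with 2784.

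Of the 54 direct TGFβ targets and feedback genes in the list, 6 were in the table, all above 1, the side that the reading set. Pmepa1, a membrane protein that restrains TGFβ signalling, had 6857 reads in TGFβ and 1268 in vehicle (95% interval of the ratio 5.09 to 5.75). Wisp1, a matricellular CCN gene, had 144 reads in TGFβ and 40 in vehicle, and Fstl3, an activin-binding protein gene, had 130 and 41. Inhba, which encodes the activin A subunit, had 1726 and 536, and Edn1, endothelin, had 37 and 9. The remaining 48 list genes are not in the table.

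The growth factor and receptor list had 12 genes in the table, 5 above and 4 below 1 with at least 20 reads, against 30.1% above over all 296. Hgf, hepatocyte growth factor, had 181 reads in TGFβ and 17 in vehicle, and Gfra1, a GDNF co-receptor, had 1538 and 160. Fgf5, a fibroblast growth factor, had 1185 and 360. On the other side Ptn, pleiotrophin, had 7 reads in TGFβ and 135 in vehicle. Nrg2, a neuregulin, had 4 and 68. Igfbp6, an IGF-binding protein gene, had 481 reads in TGFβ and 4407 in vehicle, and Fgf7, keratinocyte growth factor, had 135 and 1141.

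In the BMP list, Bmpr1b, a type I BMP receptor gene, had 30 reads in TGFβ and 1 in vehicle, a ratio of 20.3 in the authors' deposited table (95% interval 4.99 to 1224). Smad9, a BMP SMAD, lay 10.8-fold below 1 in the authors' deposited table (74 reads in TGFβ, 801 in vehicle; interval 8.52 to 13.9). The BMP-responsive factor Atoh8 had 62 reads in TGFβ and 476 in vehicle, and Fst, follistatin, had 74 and 546. With at least 20 reads the list had 2 members above 1 and 3 below, against 30.1% above over all 296.

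Other genes far above 1 with many reads came from several functions. Cdh6, a cadherin, had 960 reads in TGFβ and 36 in vehicle, a ratio of 26.3 in the authors' deposited table (19.1 to 38.3). Nckap1l, a haematopoietic actin regulator, had 117 reads in TGFβ and 1 in vehicle (ratio interval 20.6 to 4660). Acsbg1, an acyl-CoA synthetase, had 1258 and 81, and F2rl1, a protease-activated receptor, had 622 and 56. Gpr149, an orphan receptor gene, had 4952 and 876, Lgr6, an R-spondin receptor gene, had 837 and 199, and Lrrc15, a leucine-rich repeat membrane protein gene, had 518 and 50. Tnnt2, cardiac troponin T, had 155 and 12, and the troponin-interacting kinase Tnni3k had 27 and 0, at least 9-fold higher. The most reads on this side were those of Atp6v1g1, a proton pump subunit, with 10890 in TGFβ and 3424 in vehicle, followed by Dock8, a RAC and CDC42 activator, with 9499 and 2216.

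Matrix genes were on both sides, and the small leucine-rich proteoglycans were below 1. Tnc, tenascin C, had 2470 reads in TGFβ and 291 in vehicle, and Has2, a hyaluronan synthase, had 63 and 7; they were the 2 members above 1. Of the 12 matrix members with at least 20 reads, 10 were below 1, so 16.7% were above, against 30.1% over all 296. Spon2, a secreted spondin, had 9 reads in TGFβ and 752 in vehicle, 79.2-fold below 1 in the authors' deposited table (interval 43.8 to 183). Mgp, matrix Gla protein, an inhibitor of calcification, had 274 reads in TGFβ and 11958 in vehicle. Aspn, Omd and Ogn (asporin, osteomodulin and osteoglycin) lie in a row on chromosome 13 between 49544443 and 49624501. Aspn had 41 reads in TGFβ and 1394 in vehicle, Omd had 29 and 233, and Ogn had 236 and 7777. All 3 overlap the gene Cenpp in GENCODE. Prelp, another proteoglycan of this family, had 0 reads in TGFβ and 26 in vehicle, at least 8.67-fold lower.

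Of 8 listed collagens 5 were above 1 and 3 below, and with at least 20 reads 3 were above and 3 below, against 30.1% above over all 296. Col7a1, the anchoring fibril collagen, had 2774 reads in TGFβ and 243 in vehicle, a ratio of 11.4 in the authors' deposited table. Col4a3 had 323 and 102. Both collagen VI chains next to each other on chromosome 10 were below 1, and only Sap30l had reads between theirs on that side. Col6a1 had 3468 reads in TGFβ and 32613 in vehicle, and Col6a2 had 1029 and 15222. Col23a1, a membrane collagen, had 11 and 257.

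Col27a1, a fibrillar collagen of cartilage, carries miR-455 within its span on chromosome 4 (63214009 to 63334991) on the same strand, and it was the 1 listed host gene whose miRNA had at least 20 reads. Col27a1 had 558 reads in TGFβ and 149 in vehicle, a ratio of 3.74 in the authors' deposited table (3.12 to 4.52). The miRNA columns name the treatment. miR-455-3p had 80 reads in the TGFβ miRNA library and 28 in the vehicle library, a ratio of 1.74 after scaling to total miRNA reads (178877 and 108716; interval 1.12 to 2.77). miR-455-5p had 14 reads in TGFβ and 0 in vehicle. The mRNA ratio at this locus, on the reading used, and the miRNA ratio were both above 1. The sequences are shown with the seed, bases 2 to 8, in capitals.
miR-455-5p (chr4:63256867-63256888): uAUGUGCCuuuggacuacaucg
miR-455-3p (chr4:63256904-63256924): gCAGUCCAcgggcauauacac

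Contractile genes were below 1. Acta2, smooth muscle actin, a usual marker of the myofibroblast that TGFβ is known to raise in fibroblasts, had 89 reads in TGFβ and 1597 in vehicle, 17.8-fold below 1 in the authors' deposited table (14.5 to 22.5). Mylk, myosin light chain kinase, had 66 reads in TGFβ and 1199 in vehicle. Myl9, a regulatory myosin light chain, had 4 and 143, and the actin-binding protein gene Synpo2 had 2 and 39. These 4 were all the listed members of 30 on the list, and 207 of all 296 genes with at least 20 reads were below 1.

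Interferon-inducible and complement genes were also on the lower side, with 17 of 18 listed members below 1 against 499 of all 998 genes. With at least 20 reads 8 of 8 were below, against 207 of all 296. C3, the central complement component, had 15 reads in TGFβ and 475 in vehicle. The protease genes C1s (32 reads in TGFβ, 471 in vehicle) and C1ra (19 and 308) lie close together on chromosome 6. Gbp2, an interferon-induced GTPase, had 4 and 107, and Ifi27l2a had 0 and 41, at least 13.7-fold lower. Of the leukocyte markers, Laptm5 (12 reads in TGFβ, 0 in vehicle) and Aif1 (1 and 15) were the 2 of 15 listed, on opposite sides of 1, and their part in these values was not tested.

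Genes that make and break down retinoic acid, and other detoxifying enzymes, had 7 members above and 21 below 1, against 50% above over all 998. With at least 20 reads they had 2 above and 10 below, against 30.1% above over all 296. Aldh1a1 and Aldh1a7, neighbouring aldehyde dehydrogenase genes on chromosome 19, had 0 reads each in TGFβ. In vehicle they had 54 and 79, so TGFβ was at least 18.0-fold and 26.3-fold lower. Close paralogs can share reads, so the 2 counts are uncertain as single genes. Cyp26b1, which degrades retinoic acid, had 35 reads in TGFβ and 1842 in vehicle, 51.9-fold below 1 in the authors' deposited table (37.7 to 75.8). Ces1f, a carboxylesterase, had 4 and 515. The aryl hydrocarbon receptor target Cyp1a1 had 8 reads in TGFβ and 267 in vehicle, Aldh3a1 had 99 and 1476, and Ephx1, epoxide hydrolase, had 461 and 6251. Aldh1l1, a folate enzyme, was above 1 with 22 reads in TGFβ and 0 in vehicle, at least 7.33-fold higher.

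The ratio farthest from 1 in the table was that of Accn1, an acid-sensing ion channel gene now named Asic2, with 0 reads in TGFβ and 2784 in vehicle, at least 928-fold lower. It was listed at neither later day. The protein-coding gene 5530401A14Rik, itself listed with 2 reads in TGFβ and 0 in vehicle, overlaps it in GENCODE, and without strand the reads of the 2 cannot be told apart. All 8 channel genes with at least 20 reads were below 1, as were 207 of all 296. Kcnj2, an inward rectifier potassium channel, had 300 reads in TGFβ and 4745 in vehicle, Scn11a, a sodium channel, had 0 and 39, and Cacna1g, a T-type calcium channel, had 1 and 32. With fewer reads, 11 other channel genes were above 1 and 10 below.

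Other genes far below 1 included Dio2 and Agt. Dio2, which activates thyroid hormone, had 7 reads in TGFβ and 951 in vehicle, 127-fold below 1 in the authors' deposited table (65.7 to 339). Agt, angiotensinogen, had 0 and 158, at least 52.7-fold lower. Cytokine genes with at least 20 reads lay 2 above and 5 below, close to the 30.1% above over all 296. Cxcl12, a stromal chemokine, had 281 reads in TGFβ and 2979 in vehicle, Cxcl1 had 74 and 618, and the interleukin Il7 had 112 and 876. The surface antigen genes Ly6a (4 reads in TGFβ, 278 in vehicle) and Ly6c1 (0 and 37) are neighbours on chromosome 15. Slc1a3, a glutamate transporter, had 628 and 7101.

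**Figure D3:**
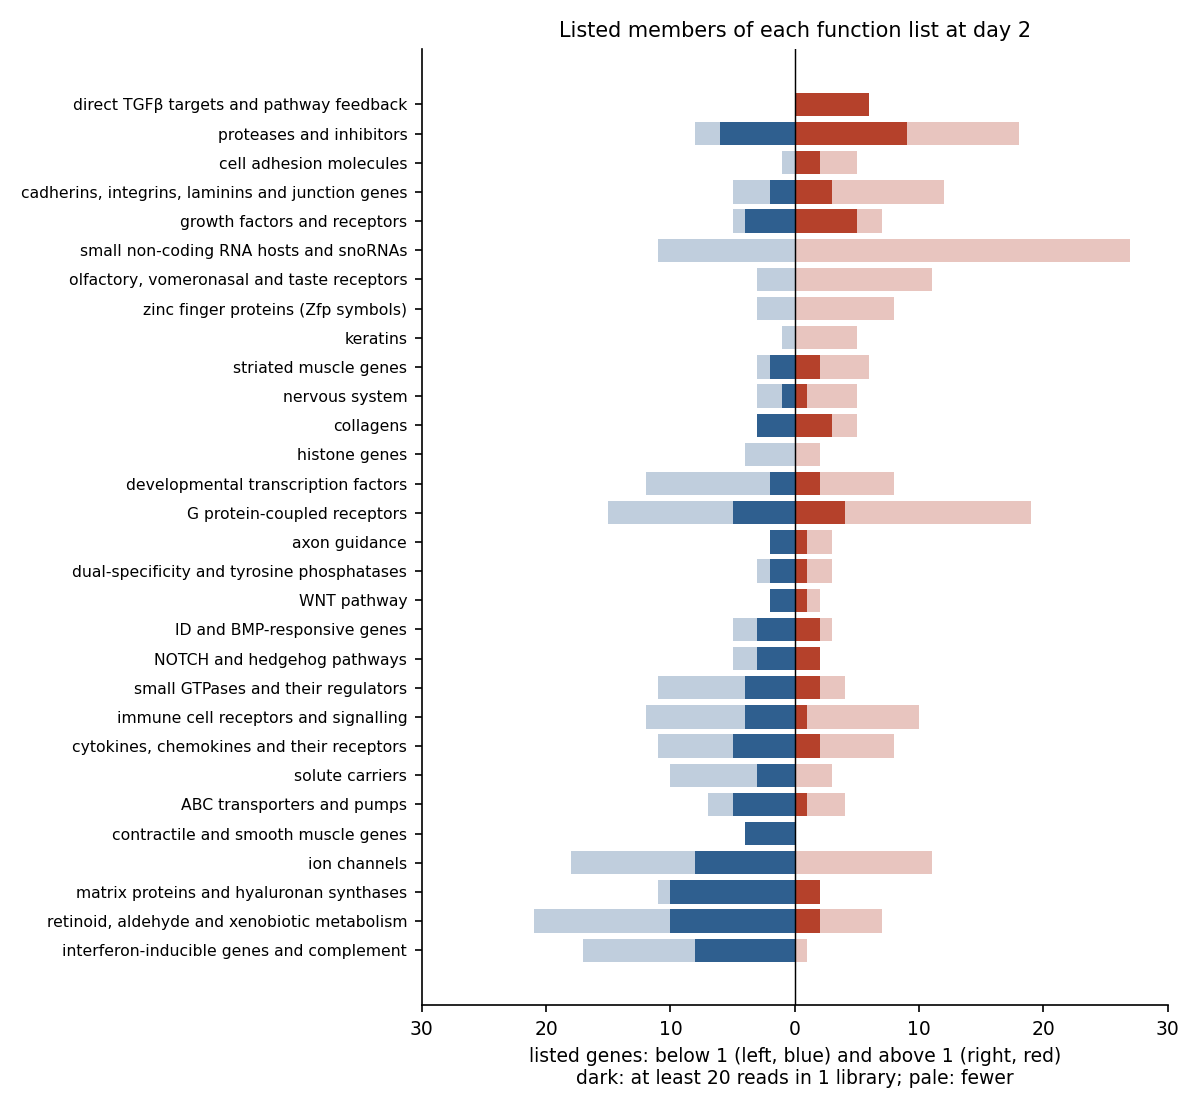
Bars count the listed genes of each function list below 1 (left, blue) and above 1 (right, red), dark for at least 20 reads in 1 library and pale for fewer. The interferon and complement list has 17 genes left and 1 right, while the small RNA and olfactory lists have no dark part.

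Jag1, the Notch ligand, was the day 2 gene above 1 with the most reads that neither later table lists: 6050 in TGFβ and 1074 in vehicle, a ratio of 5.63 in the authors' deposited table (5.28 to 6.02). Of all 998 genes, 573 (57.4%) were listed at neither day 4 nor day 8, and of the 296 with at least 20 reads 94 (31.8%). Above 1 those 94 include 11 of 89 genes (12.4%), and below 1 they include 83 of 207 (40.1%). The later tables end at 5 above 1 and at 7-fold below, so a gene absent from them may still differ by less.

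The 11 above 1 lay between 3.03 and 5.63 in the authors' deposited table. Besides Jag1, they included Edn1, Inhba, Angptl4 (20 reads in TGFβ, 5 in vehicle), a lipase inhibitor, Boc (86 and 24), a hedgehog co-receptor, and 5 less studied genes, Gm1045, Fam19a1, Erc2, Tmprss11bnl and Evi2a. None of the 35 genes above 1 at 7-fold or more was absent from both later tables, and 34 were above 1 at all 3 days.

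The 83 below 1 lay at a median of 8.93-fold below, and 31 of them were at 10-fold or more. Accn1 and Sap30l, a corepressor subunit gene (340 reads in TGFβ, 17958 in vehicle), had the most extreme ratios among the members of this group with the most reads. Of all 207 genes below 1 with at least 20 reads, 40.1% were absent from both later tables. All 5 cytokine genes of the 207, Il15ra, Cxcl12, Cxcl1, Osmr and Il7, were among the 83. Slpi, Serping1, C1ra, Kcnj2, Ephx1, Col6a1, Igfbp6 and Fgf7 were too. So were Slc6a12, a betaine transporter (15 reads in TGFβ, 512 in vehicle), Notum, a WNT-inactivating enzyme (68 and 842), and Peg10, an imprinted gene (565 and 6533). The 4 contractile genes, Aspn, Ogn, Spon2 and C1s were below 1 at all 3 days, as were 81 of all 207 (39.1%).

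**Figure D4:**
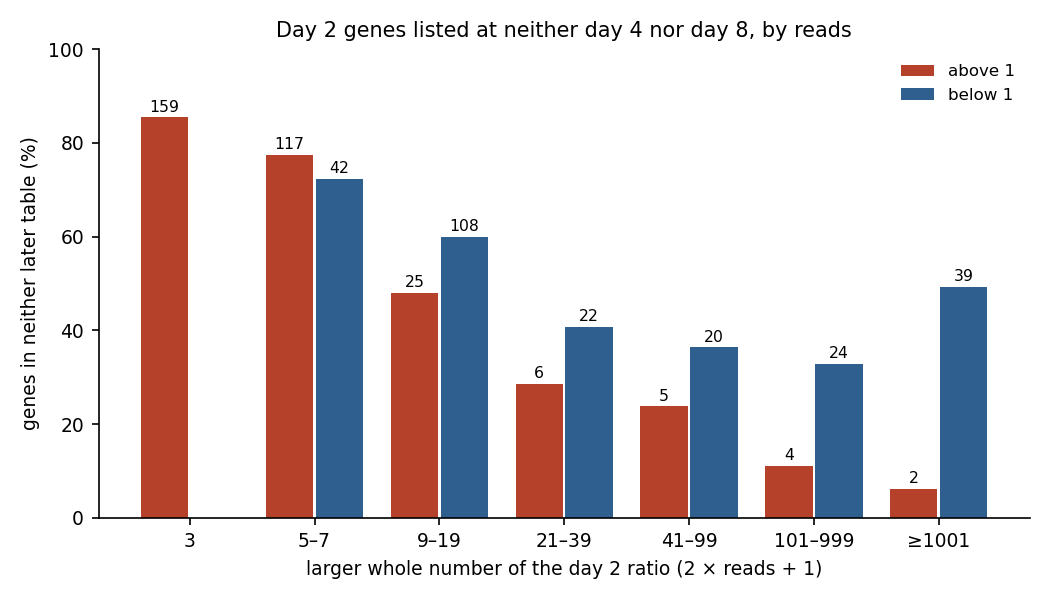
Percent of day 2 genes that neither later table lists, by the larger whole number of the day 2 ratio, above 1 (red) and below 1 (blue), with the number of such genes over each bar. Above 1 the share is 85.5% at 1 read and 6.25% in the highest class; below 1 it is 49.4% in the highest class.

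Above 1, the share absent was lower the more reads a gene had. It was 85.5% of genes with 1 read in TGFβ, and 23.8%, 11.1% and 6.25% in the 3 classes with the most reads. Below 1 those 3 classes had 36.4%, 32.9% and 49.4%.

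Among genes with at least 20 reads, 70 were above 1 at all 3 days and 81 below. The 70 had median ratios of 6.71 at day 2, 20.9 at day 4 and 15.3 at day 8 over the authors' deposited tables, and 67 of them were farther from 1 at day 4 than at day 2. The later tables start at 5, which removes genes nearer to 1 at those days. Among the 34 at 7-fold or more at day 2, the medians were 10.3, 45.4 and 42.7, and 32 were farther from 1 at day 4. The 81 genes below 1 had medians of 17.4-fold, 22.7-fold and 22.6-fold, and 46 were farther from 1 at day 4. Cdh6 stood at 26.3, 181 and 182 in the authors' deposited tables of days 2, 4 and 8, and Lrrc15 at 10.3, 165 and 157. Nckap1l stood at 78.3, 45.8 and 40.3 there, and its day 2 counting interval of 20.6 to 4660 holds the later values. Each day has its own pair of libraries, and depth differences within a pair stay in its ratios.

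**Figure D5:**
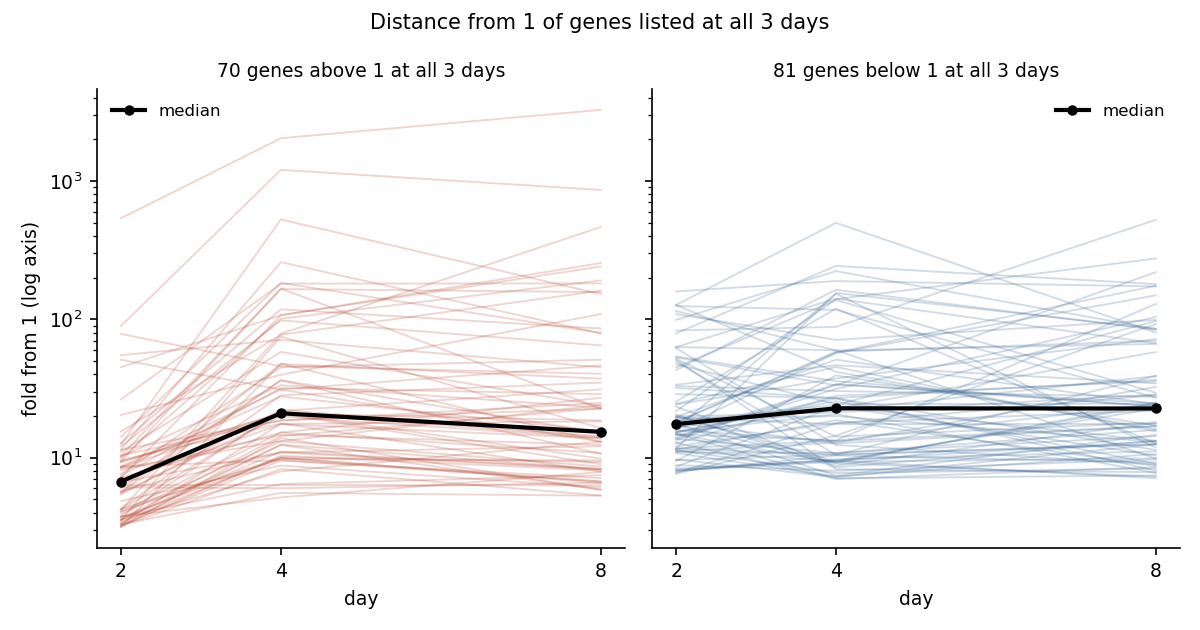
Fold from 1 (log axis) at days 2, 4 and 8 for genes with at least 20 reads at day 2 that lie on 1 side of 1 at all 3 days, 70 above (left) and 81 below (right), 1 line per gene and the median in black. The median above goes through 6.71, 20.9 and 15.3, and below through 17.4, 22.7 and 22.6.

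Of the 292 genes with at least 20 reads that could be placed, 63 fell into 27 runs in which listed neighbours were at most 200 kb apart. In 3 runs every gene was above 1, in 19 every gene was below, and in 5 both sides met. The longest runs were 5 genes below 1 on chromosome 7 around Mamstr and Dbp, the 4 matrix metalloproteases above 1, and 4 genes below 1 at C1rl, C1ra and C1s. Bmpr1b (above 1) and Unc5c (below 1), a netrin receptor gene, lie within 200 kb on chromosome 3, as do Cyp1a1 (below 1) and Lman1l (above 1) on chromosome 9. These runs were picked out after the values were seen, and 207 of the 296 genes are on the lower side to begin with.

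The table holds only the genes farthest from 1, so it cannot show how abundant markers of other cell types were. None of 18 nerve markers and none of 15 fibroblast markers was listed, so the fibroblast label cannot be checked from it. Epithelial markers Krt8, Krt14 and Cldn4 (16, 3 and 1 reads in TGFβ, 0 in vehicle) and endothelial markers Cdh5 and Tek (15 and 1 reads in TGFβ, 0 in vehicle) were above 1 with under 20 reads. Among striated muscle markers, Tnnt2 and Tnni1 (1 read in TGFβ, 0 in vehicle) were listed of 23. Fewer cells of a type and less RNA per cell cannot be told apart in bulk libraries, and the part of these markers in other results was not tested.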

How the data were processed

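The mRNA values are a ratio (fold change) per gene that the authors deposited in 1 table per day, each with 998 genes and no values per library. The miRNA values are counts of reads per mature miRNA that the authors deposited with no normalization. Per the labels, libraries were made with a TruSeq RNA v2 kit. Per the submitters' processing notes, edgeR 3.9 and mm10 were used, with no role stated. The aligner is not given in the sources used here.

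From each printed ratio the smallest pair of odd whole numbers matching its printed digits was found. Reads are (number - 1)/2. This search was tested on simulated data. Counting intervals are exact (Clopper-Pearson) at 95% (Python 3.11.15, scipy 1.17.1). No test was made, since each group has 1 library. Symbols matched the mouse gene tables as given for 906 genes and as synonyms for 84, with 8 unmatched, 2 of them turned into dates by a spreadsheet, and 968 have a RefSeq place (GRCm38.p6, the same build as mm10).

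Function lists, markers and members were chosen with earlier results of these data known. Named genes are, per side, the 15 farthest from 1 with at least 20 reads, the 10 with most reads, the last 5, the 5 with 0 reads and the largest number, 5 members per list, and 20 genes on opposite sides at another day. Others were named after their values were seen. Alternatives varied the read minimum, symbol matching, side, distance, tolerance, scaling and promoter window. Some genes are not reported here.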

Additional observations from a re-analysis of the deposited data

Results flagged for a closer look

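Of the 998 genes, 35 lay on 1 side of 1 at day 2 and on the opposite side in a later table. Only 2 of them, Nkd2 and Gm10536, had at least 20 reads at both days, and the difference between days was not tested. Nkd2, a WNT pathway inhibitor gene, stood at 0.101 in the authors' deposited table of day 2 (5 reads in TGFβ, 54 in vehicle; 95% interval 0.0289 to 0.230). It stood at 9.46 in that of day 8 (61 and 6; interval 4.41 to 28.8), and day 4 does not list it. Gm10536, a predicted gene, stood at 0.0120 in the authors' deposited table of day 2 (0 reads in TGFβ, 41 in vehicle), at least 13.7-fold lower. In that of day 4 it stood at 55 (27 and 0), at least 9-fold higher. With 1 library per condition and day, a mislabelled or atypical library and a change with time cannot be told apart.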

How the results depend on the processing

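The counts on each side rest on the read minimum. The 499 above and 499 below became 89 and 207 at 20 reads, 68 and 152 at 50 reads, and 117 and 214 with a read in both libraries. At 7-fold or more, an alternative added after seeing the data, they were 110 and 499. Halving or doubling all ratios could move none across 1, given where the table ends. Genes listed at neither later day, 318 above and 255 below, became 11 and 83 at 20 reads, 6 and 63 at 50 reads, and 0 and 83 at 7-fold with 20 reads, again added later. Synonyms left both counts at their value. With 3 times the reads, the intervals excluding a 2-fold difference were 124 above and 367 below. Majority sides turned round at 20 reads for immediate-early genes (0% above), G protein-coupled receptors (44.4%), axon guidance genes (33.3%) and predicted genes (29.4%), and for proteases with the hand-written symbols alone (25% above). Without scaling miR-455-3p stood at 2.86. From all listed genes to those with 20 reads, promoter shares above 1 were 13.5% in place of 8.27% for AP-1, 29.2% in place of 23.8% for CAGACA, 0% in place of 0.730% for CArG, 14.6% in place of 9.73% for TATAAA and 13.5% in place of 7.79% for the interferon core. The cause was not tested. No library could be left out and no paired analysis was possible because each condition has 1 library.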

Other observations

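Some gene families were in the table with few smallest reads, as were most listed genes. Over all 998 genes 50% were above 1, and of the 296 with at least 20 reads 30.1% were above. A 0 in 1 library was behind 76.6% of all genes above 1 and 57.1% of those below. The 14 listed olfactory, vomeronasal and taste receptor genes, 11 above 1 and 3 below, all had 0 reads in 1 library, and none had 20. The same held for 6 histone genes, 2 above and 4 below. Of 6 keratin genes, 5 were above 1, with none at 20 reads. Among 38 small RNA hosts and snoRNAs, 27 were above 1 and 11 below, again with none at 20 reads. Predicted and clone-named genes, 167 in all, were 99 above and 68 below 1, while the 17 of them with at least 20 reads were 5 above and 12 below.

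The mRNA table also lists miRNA genes. Of those, 27 could be matched to a mature name, and a mature form of 20 had reads at day 2. No matched gene had more than 17 mRNA reads. Mir92b stood at 0 reads in TGFβ and 3 in vehicle in the mRNA form, and it lies between Thbs3 and Muc1 on chromosome 3, both below 1. Its mature miR-92b-3p had 249 reads in the TGFβ miRNA library and 932 in the vehicle library, a scaled ratio of 0.162 (95% interval 0.141 to 0.187). In other miRNA genes the mRNA and mature forms were on the same side of 1 or on opposite sides. Mir183 had 1 mRNA read in TGFβ and 0 in vehicle, and mature miR-183-5p had a scaled ratio of 1.62 (1.45 to 1.82). Mir452 had 2 mRNA reads in TGFβ and 0 in vehicle, and mature miR-452-5p had 27 and 0. Mir484 had 2 mRNA reads in TGFβ and 0 in vehicle, while mature miR-484 had a scaled ratio of 0.564 (0.485 to 0.654). Mir125b-1 had 17 mRNA reads in TGFβ and 5 in vehicle, with scaled ratios of 0.793 for miR-125b-5p and 1.78 for miR-125b-1-3p. Mirlet7i had 0 mRNA reads in TGFβ and 8 in vehicle, and let-7i-5p had a scaled ratio of 0.964 (0.935 to 0.993). Without scaling, let-7i-5p stood at 1.59 and miR-125b-5p at 1.31, so their side of 1 rests on the scaling. The sides of miR-92b-3p, miR-183-5p, miR-484 and miR-125b-1-3p were the same without it.

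Dpt, dermatopontin, was tied at the end of the day 2 list with 0 reads in TGFβ and 3 in vehicle, and stood at 24.3 in the authors' deposited table of day 8 with 36 and 1.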
